A study of Mus musculus with 8 samples.

Results

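Ppp1r17, Ppp1r1a and Ppp1r1b encode small inhibitors of protein phosphatases, and Prkg1 and Prkg2 encode the kinases that cyclic GMP switches on. These 5 genes were followed across 3 nuclei of the mouse hypothalamus, out of 27425 gene names measured on the arrays. They were chosen by name: each array spot whose gene name was one of the 5 and that was not a control spot was taken, which gave 1 spot and 1 probe for each gene. The signals came from neurons of the Nkx2-1 lineage in the arcuate nucleus (Arc, 2 samples), the ventromedial nucleus (VMH, 3 samples) and the dorsomedial nucleus (DMH, 3 samples). All mice were 2-month-old females of the cross Nkx2-1-CreERT2 x Rosa-ZsGreen, treated with tamoxifen, so that cells with an active Nkx2-1 gene at that time came to express the green protein ZsGreen. Green neurons were cut out with a laser and pooled, and no unlabelled neurons or mice without the driver were compared here. The labels did not say which animals gave which sample or how many animals were used. What the p-values measure is thus only how these samples vary, possibly for technical reasons, and they are too small if samples of a nucleus share an animal.

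Protein phosphatase 1 (PP1) and protein phosphatase 2A (PP2A) remove phosphate groups from serine and threonine, and neurons restrain them with small proteins that become inhibitors once a kinase has phosphorylated them. Ppp1r17 encodes the G-substrate, best known from cerebellar Purkinje cells, where cyclic GMP-dependent kinase phosphorylates it. Ppp1r1a encodes inhibitor-1 and Ppp1r1b encodes DARPP-32, both activated by cyclic AMP-dependent kinase, and DARPP-32 is best known from dopamine-responsive neurons of the striatum. Prkg1 and Prkg2 encode cGKI and cGKII, a soluble and a membrane-bound kinase. Cyclic GMP is made by guanylyl cyclases, which nitric oxide or natriuretic peptides turn on, and is broken down by phosphodiesterases.

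Each level rests on a single oligonucleotide, so the sequence that read the gene is given here for 4 of the 5 genes. Shown are the first 30 of the 60 bases of each of these probes, 5′ to 3′, as the scanner files hold them, with no bases marked.
Ppp1r17: agactctgatacgttttcttatataagagg
Ppp1r1a: gaaaaatagacgtctggaagtaggaggtcg
Ppp1r1b: aatgcacttactatctgtccttagggggcc
Prkg1: catgatgcctttgatcgatgctgctccagt
In build mm9, the files place the Ppp1r17 probe on the plus strand at chr6:55982358-55982417 and the Ppp1r1b probe on the plus strand at chr11:98218965-98219024. The Ppp1r1a probe lies on the minus strand at chr15:103361073-103361132, and the Prkg1 probe on the minus strand at chr19:30643563-30643622. The files list 2 transcripts for the Prkg1 probe, so isoforms of Prkg1 were not told apart. Exon and UTR annotation in that build was not used here.

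A level below is the log2 of the spot's processed signal minus the log2 of the 75th percentile of its array, so a level of 0 is the signal of a spot brighter than 75 percent of the array. Levels of different genes are not set against each other, since probes differ in how strongly they bind. A difference is the mean level of the first nucleus minus that of the second, from a limma fit to all 8 arrays, and a gene passed the test where its Benjamini-Hochberg adjusted p over all genes was under 0.05. None of the 5 spots was saturated or an outlier on any array. All 5 were well above background on all 8 arrays, except the Prkg2 spot on Arc 1. The deposited 75th percentiles ran from 1806 to 3042, and the 3 DMH arrays were the brightest, with DMH 1 the highest. On each array, 72.4 to 78.7 percent of all probes exceeded the background clearly. Over all genes, the correlation of arrays within a nucleus was 0.940 to 0.964, and between nuclei it was 0.905 to 0.951.

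Markers of the nuclei mostly followed the labels, but the lists were chosen with earlier results of these data known. The counts are therefore not independent evidence for the labels. All 8 genes of a list of Arc neuron markers were lower in VMH than in Arc, and 6 of 8 were lower in DMH than in Arc, among them Pomc and Agrp, which encode feeding peptide precursors. Of 8 VMH neuron markers, 6 were lower in DMH than in VMH and 5 were higher in VMH than in Arc, among them Adcyap1. Of 8 DMH neuron markers, 7 were higher in DMH than in VMH and 3 were higher in DMH than in Arc, among them Grp and Cck. Grp was well above background on 0 of 3 VMH and 0 of 2 Arc arrays, so it was kept only through DMH. The same held for Prdm13 of the DMH list, on 0 of 3 VMH and 1 of 2 Arc arrays. Fezf1 of the VMH list was kept only through VMH, with 0 of 3 DMH and 0 of 2 Arc arrays. Cck was well above background on 0 of 2 Arc arrays. The Arc marker Th went against its list, being higher in DMH than in VMH by 1.55 (limma adjusted p = 0.0386). The comparison of DMH with VMH called 337 of 27424 genes (1.23 percent), of which 121 were higher in DMH. DMH against Arc called 115 of 27423 (0.419 percent), with 67 higher and 48 lower in DMH, and under another background correction (normexp) this split turned to 110 higher and 124 lower. VMH against Arc called 268 of 27422 (0.977 percent). The comparisons with DMH share the DMH arrays, those with VMH the VMH arrays and those with Arc the Arc arrays.

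Of the 5 genes, Ppp1r17 alone passed the test in any pair of nuclei, and it did so in both comparisons with DMH. Its level was 2.71 on DMH 1, 1.52 on DMH 2 and 1.59 on DMH 3. In VMH 1 to 3 it was -2.97, -3.27 and -2.72. In Arc 1 and Arc 2 it was -2.18 and -2.07. All DMH arrays thus lay above all others, and the Arc arrays lay above the VMH arrays with no overlap. As processed signal, the spot read 6342 to 19956 units on the DMH arrays, 193 to 300 on the VMH arrays and 402 to 429 on the Arc arrays.

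**Figure D1:**
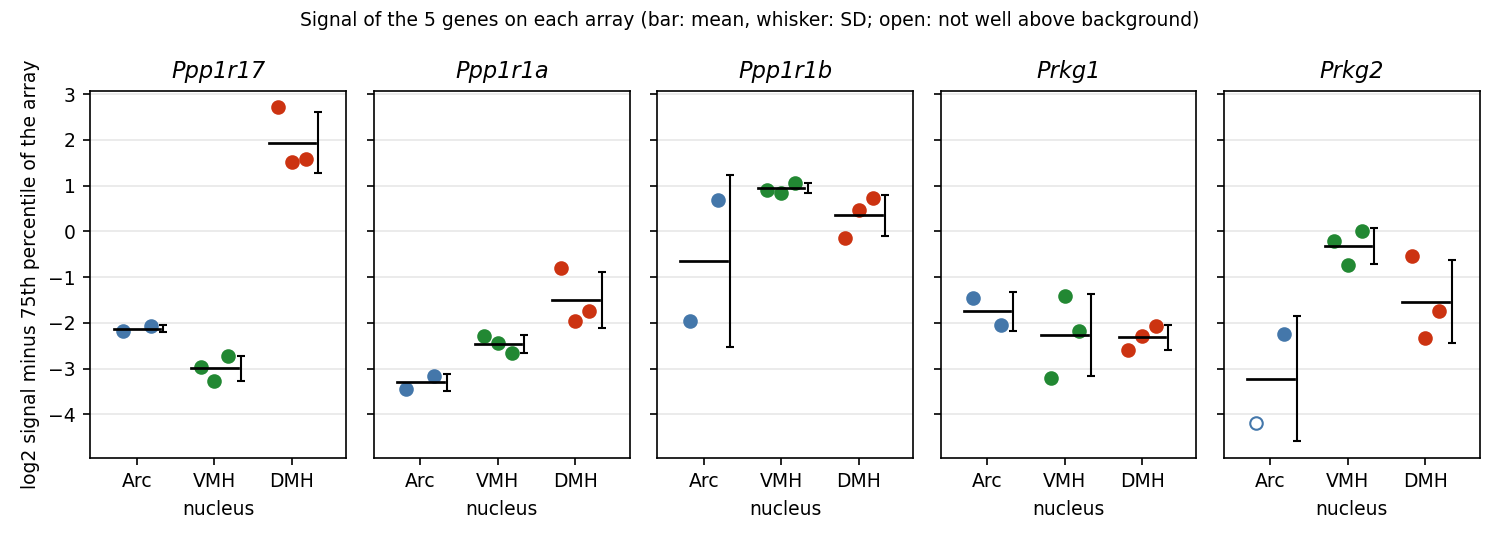
Level of each gene (log2 signal minus the 75th percentile of the array, vertical axis) on each array of Arc (n = 2), VMH (n = 3) and DMH (n = 3); the bar is the mean, the whisker the SD, and the open point is not well above background. Ppp1r17 sits between 1.52 and 2.71 on the DMH arrays and between -3.27 and -2.07 on all others.

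The mean level of Ppp1r17 was 1.94 ± 0.67 in DMH (SD, n = 3), -2.12 ± 0.07 in Arc (SD, n = 2) and -2.99 ± 0.27 in VMH (SD, n = 3). DMH exceeded VMH by 4.93 ± 0.34 on the log2 scale (SE, 95% interval 4.14 to 5.72), a 30.5-fold difference, with a limma adjusted p of 0.00181. DMH exceeded Arc by 4.06 ± 0.38 (SE, 95% interval 3.18 to 4.95), a 16.7-fold difference, with a limma adjusted p of 0.00968. Among all genes higher in DMH, it ranked 14th by the size of the difference from VMH and 18th by the difference from Arc. Of all genes tested, 0.441 percent were called higher in DMH than in VMH and 0.244 percent were called higher in DMH than in Arc. The research group behind the series followed Ppp1r17 up in the DMH, so its direction here is not independent evidence. These are pooled cells, so more neurons that express the gene and more RNA per neuron cannot be told apart.

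The lower 2 levels of Ppp1r17 were closer to each other. VMH was below Arc by 0.86 ± 0.38 on the log2 scale (SE), with a 95% interval of the difference from -1.75 to 0.02 and a limma adjusted p of 0.36. The 3 VMH arrays all lay below both Arc arrays, which held for 35 percent of all genes in one direction or the other. The order DMH, Arc, VMH therefore had a step from DMH that exceeded the spread and a step from Arc to VMH that did not pass the test. Leaving out any array in turn kept the difference of DMH from VMH between 4.54 and 5.14 and that from Arc between 3.68 and 4.28, with limma adjusted p-values of at most 0.0311.

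Inhibitor-1 (Ppp1r1a) had the same highest nucleus but a smaller spread of levels. It read -0.80, -1.96 and -1.74 in DMH 1 to 3, -2.28, -2.44 and -2.66 in VMH 1 to 3, and -3.44 and -3.17 in Arc 1 and 2. The arrays fell in the order DMH, VMH, Arc, and no array of a nucleus overlapped another nucleus. DMH exceeded Arc by 1.80 ± 0.35 on the log2 scale (SE, 95% interval 0.99 to 2.62; limma adjusted p = 0.0891), a 3.49-fold difference that did not pass the test. DMH exceeded VMH by 0.96 ± 0.31 (SE, 95% interval 0.23 to 1.69; limma adjusted p = 0.244), and VMH exceeded Arc by 0.84 ± 0.35 (SE, 95% interval 0.03 to 1.66; limma adjusted p = 0.336). Groups that do not overlap were common on these arrays: 21.7 percent of all genes did so for DMH against VMH and 33.4 percent for DMH against Arc. Ppp1r17 and Ppp1r1a thus differed in where they ranked Arc and VMH, and neither of those steps passed the test.

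DARPP-32 (Ppp1r1b) was high on all 3 VMH arrays, at 0.91, 0.85 and 1.06, and lower on the DMH arrays, at -0.14, 0.46 and 0.73. The Arc arrays disagreed, with -1.97 on Arc 1 and 0.69 on Arc 2, so that Arc 2 lay within the range of the DMH arrays and Arc 1 below every other array. All DMH arrays lay below all VMH arrays, with a difference of -0.59 ± 0.60 (SE, 95% interval -1.99 to 0.80; limma adjusted p = 0.711). DMH and VMH arrays did not overlap for 21.7 percent of all genes. VMH exceeded Arc by 1.58 ± 0.67 (SE, 95% interval 0.02 to 3.14; limma adjusted p = 0.347). This value depended on which Arc array was kept: it was 0.25 without Arc 1 and 2.91 without Arc 2, where it passed the test (limma adjusted p = 0.02). DMH exceeded Arc by 0.99 ± 0.67 (SE, 95% interval -0.57 to 2.55; limma adjusted p = 0.506), and without Arc 1 the sign turned, to -0.34. No order of Arc among the nuclei can be given for Ppp1r1b from these samples.

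The difference between the Arc arrays was wide for this gene even against the rest of the array. Arc 1 and Arc 2 differed by 2.66 for Ppp1r1b, and 1.56 percent of genes differed by at least as much, with a median of 0.38 over all genes. DARPP-32 is also known from tanycytes, the glia that line the floor of the third ventricle beside the Arc. The summed level of the 9 measured of 10 tanycyte markers was 2.74 to 2.78 on the Arc arrays, 2.55 to 2.74 on the VMH arrays and 1.84 to 2.03 on the DMH arrays. Col23a1, named after its values were seen, gave the largest part of this sum on the Arc arrays. Its level was 1.31 to 1.79 there, 0.65 to 1.13 on the VMH arrays and -1.16 to -0.07 on the DMH arrays. The marker Nes was well above background on 0 of 3 DMH arrays and 2 of 2 Arc arrays, and Fndc3c1 was not measured in any nucleus. Vim, the gene with the largest difference of the list and named after its values were seen, was well above background on 1 of 3 DMH arrays and on both Arc arrays. Crym was lower in DMH than in VMH by 1.83 on the log2 scale (limma adjusted p = 0.0466), and was the only one of the 9 that passed in any pair. Its levels did not follow the sum: VMH minus Arc was 1.85 (limma adjusted p = 0.0696) and DMH minus Arc 0.02. The part of tanycytes in the levels of Ppp1r1b was not tested.

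The kinase genes did not follow Ppp1r17. Prkg1 read -1.45 and -2.05 in Arc 1 and 2, -3.19, -1.40 and -2.19 in VMH 1 to 3, and -2.60, -2.28 and -2.07 in DMH 1 to 3. The lowest and the highest level of the gene were both on VMH arrays, and 5.44 percent of genes spread as widely among them. DMH minus VMH was -0.05 ± 0.44 (SE, limma adjusted p = 0.972), with a 95% interval of the difference from -1.07 to 0.96 on the log2 scale. DMH minus Arc was -0.57 ± 0.49 (SE, 95% interval -1.70 to 0.57; limma adjusted p = 0.602), and VMH minus Arc was -0.51 ± 0.49 (SE, 95% interval -1.64 to 0.62; limma adjusted p = 0.694). No order of the nuclei can be given for Prkg1, and these intervals do not show that its levels were alike. Leaving out VMH 2 moved DMH minus VMH to 0.38, and leaving out DMH 1 moved it to 0.09.

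Prkg2 varied more between nuclei, with VMH at the top. It read -0.22, -0.74 and 0.01 in VMH 1 to 3, -0.55, -2.32 and -1.74 in DMH 1 to 3, and -2.25 in Arc 2. The Arc 1 spot, at -4.18, was not well above background, so Arc was measured on 1 of 2 arrays. All VMH arrays lay above both Arc arrays, while DMH overlapped each of the other nuclei. VMH and Arc arrays did not overlap for 35 percent of all genes. VMH exceeded Arc by 2.90 ± 0.66 on the log2 scale (SE, 95% interval 1.36 to 4.44), and this did not pass the test (limma adjusted p = 0.11). DMH exceeded Arc by 1.68 ± 0.66 (SE, 95% interval 0.14 to 3.22; limma adjusted p = 0.266), and DMH minus VMH was -1.22 ± 0.59 (SE, 95% interval -2.60 to 0.15; limma adjusted p = 0.426). Both differences from Arc depended on which Arc array was kept. VMH minus Arc was 1.93 without Arc 1 and 3.87 without Arc 2, and DMH minus Arc was 0.71 without Arc 1 and 2.65 without Arc 2, with no call in any of these.

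**Figure D2:**
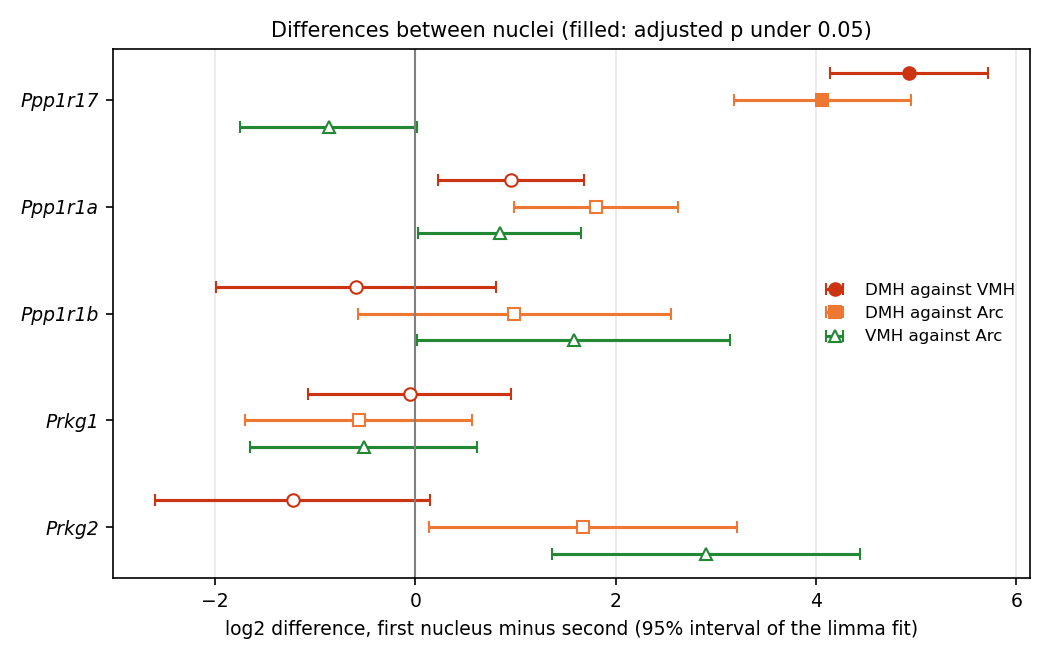
Log2 difference between nuclei (horizontal axis, first minus second nucleus) of the 5 genes, as the estimate of the limma fit with its 95% interval; filled symbols have an adjusted p under 0.05. Only the 2 comparisons of DMH for Ppp1r17, 4.93 from VMH and 4.06 from Arc, are filled.

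The DMH arrays also differed among themselves in a way that several of these genes shared. DMH 1 exceeded the mean of DMH 2 and DMH 3 by 1.16 for Ppp1r17, by 1.04 for Ppp1r1a and by 1.48 for Prkg2. Ppp1r1b was lower on DMH 1, by 0.73, and Prkg1 was lower by 0.42. Over all genes, 90 percent of these differences lay between -1.06 and 1.06, so that Ppp1r17 and Prkg2 were beyond that range and Ppp1r1a at its edge. DMH 1 was also the array with the brightest 75th percentile, 3042 against 2319 and 2107 on the other DMH arrays, and its part in these values was not tested. Without DMH 1, Ppp1r17 still passed in both comparisons with DMH.

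Markers of other cell types moved with DMH to different degrees. The summed level of the 4 measured of 6 ependymal markers was 3.39 to 4.19 on the DMH arrays, 1.55 to 2.25 on the VMH arrays and 1.89 to 1.99 on the Arc arrays. Of these 4, Tekt1, a gene of motile cilia, passed: it was higher in DMH than in VMH by 3.30 (limma adjusted p = 0.0388). Tekt1 made up most of the sum on the DMH arrays, at 2.92 to 3.98 there. The other measured markers of the list overlapped between DMH and VMH. The list's median DMH minus VMH was 0.29, beside -0.04 over all genes. Foxj1, the regulator of motile cilia, was not higher in DMH: its difference from VMH was -0.12 and its levels ran from -3.28 to -2.65 over all arrays. Tmem212 and Dynlrb2 were not measured. The summed level of the 7 measured of 8 astrocyte markers was 3.89 to 4.02 in DMH, 3.29 to 3.81 in VMH and 3.17 to 3.50 in Arc, and 0 of 7 passed in any pair, with Gja1 not measured. Of 6 markers of Purkinje cells, in which Ppp1r17 is best known, 5 were measured and 0 passed in any pair. Their median DMH minus VMH was -0.64, and their summed level was 3.74 to 3.95 in DMH, 3.78 to 4.22 in VMH and 3.49 to 3.81 in Arc. Car8 of that list was not measured. Beside these counts of astrocyte and Purkinje markers, 0.419 to 1.23 percent of all genes passed, depending on the pair. The part of ependymal cells and astrocytes in the level of Ppp1r17 was not tested.

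The remaining marker lists gave few calls. Among markers of striatal projection neurons, where DARPP-32 is best known, 7 of 8 were measured, and Drd1a, a dopamine receptor gene, stayed near background on all arrays. Of these 7, 2 were called higher in VMH than in Arc, as were 0.66 percent of all genes. In DMH against Arc, 1 was called higher in DMH, beside 0.244 percent of all genes. Tac1 of that list, which encodes substance P, was higher in VMH than in Arc by 3.14 and lower in DMH than in VMH by 2.33. None of the 8 oligodendrocyte, 8 microglia, 8 endothelial and 5 measured mural cell markers passed in any pair. The share over all genes was 0.419 to 1.23 percent, depending on the pair. Of 8 pan-neuronal markers, Syt1 was higher in VMH and in DMH than in Arc, and Nefl was higher in VMH than in Arc and than in DMH.

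The enzymes around the kinases were examined next, in lists of pathway genes chosen by function. Of 16 listed genes of cyclic GMP synthesis, 12 were measured, and 1 passed in DMH against VMH, as lower in DMH, where 0.788 percent of all genes did. That gene was Nos1, which encodes neuronal nitric oxide synthase, with levels of 4.96, 4.66 and 4.30 in VMH 1 to 3, 2.83, 3.41 and 3.38 in DMH 1 to 3, and 3.09 and 3.12 in Arc 1 and 2. The VMH arrays lay above all others, and DMH minus VMH was -1.44 ± 0.25 (SE, limma adjusted p = 0.0439). Arrays did not overlap for 21.7 percent of all genes in DMH against VMH and for 35 percent in VMH against Arc. VMH minus Arc was 1.54 ± 0.28 (SE, limma adjusted p = 0.0532), and DMH minus Arc was 0.10 ± 0.28 (SE, limma adjusted p = 0.887). The call of Nos1 in DMH against VMH was lost when any of the 8 arrays was left out, with values from -1.61 to -1.25 and limma adjusted p-values from 0.0699 to 0.149. The cyclase subunit Gucy1b3, the natriuretic peptide receptor Npr1, Gucy2f and Nppc were not measured. The list's median DMH minus VMH was -0.33, beside -0.04 over all genes.

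The phosphodiesterases that can break down cyclic GMP gave no call in any pair, with 13 of 13 measured. Depending on the pair, 0.419 to 1.23 percent of all genes were called, so 0 of 13 was near that share. The smallest p-values belonged to calcium-dependent members. Pde1a read -0.82 and -0.67 on the Arc arrays and 0.78 to 1.29 on the VMH arrays, a difference of 1.83 ± 0.34 (SE, limma adjusted p = 0.0564). Pde1b was above Arc by 0.94 in VMH and by 0.95 in DMH (limma adjusted p = 0.101 and 0.11). The list's median differences were 0.00 for DMH minus VMH, -0.10 for DMH minus Arc and 0.32 for VMH minus Arc.

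Among other targets of cyclic GMP, 6 of 9 listed genes were measured and 1 passed in 2 pairs. Cnga3, a subunit of cyclic nucleotide-gated channels, read 0.56, 0.60 and 0.59 in DMH 1 to 3, -1.21, -1.63 and -1.10 in VMH 1 to 3, and 0.02 and 0.04 in Arc 1 and 2. The 3 nuclei did not overlap. For a single pair of nuclei, arrays did not overlap for 21.7 to 35 percent of all genes, depending on the pair. The share of genes that separate all 3 nuclei was not computed. The order DMH, Arc, VMH was that of Ppp1r17. In that order, the step from DMH to Arc did not pass for Cnga3, nor that from Arc to VMH for Ppp1r17. DMH exceeded VMH by 1.90 ± 0.20 (SE, 95% interval 1.44 to 2.35; limma adjusted p = 0.00644), a difference that passed under all 21 alternatives tried. Of all genes, 0.441 percent were called higher in DMH than in VMH. VMH was below Arc by 1.34 ± 0.22 (SE; limma adjusted p = 0.0413), where 0.317 percent of all genes were called lower in VMH, and this call was lost when any of the 8 arrays was left out. DMH minus Arc was 0.55 ± 0.22 (SE, limma adjusted p = 0.27). The channel subunits Cnga1, Cnga4 and Cngb3 were not measured.

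The phosphatases and the list of their other inhibitors and related phosphoproteins gave no call. Of all genes, 0.419 to 1.23 percent were called, depending on the pair. All 7 listed core subunits of PP1 and PP2A were measured, and their median differences were 0.26 for DMH minus VMH, 0.52 for DMH minus Arc and 0.34 for VMH minus Arc. Of these, Ppp2r1b, a scaffold of PP2A, and Ppp2ca, its catalytic subunit, had the smallest p-values, with DMH minus Arc at 0.80 and 0.52 (limma adjusted p = 0.228 and 0.316). Of 19 other listed inhibitors of PP1 or PP2A and related phosphoproteins, 17 were measured and 0 passed. Phactr1, which encodes a PP1- and actin-binding protein, was above Arc by 1.31 in VMH (limma adjusted p = 0.0709), and Arpp21, which encodes a cyclic AMP-regulated phosphoprotein, was below VMH by 1.51 in DMH (limma adjusted p = 0.148). Phactr4, named after its values were seen, had the largest positive difference of the list for DMH minus VMH, 2.03 ± 0.60 (SE; limma adjusted p = 0.197). It was well above background on 1 of 2 Arc arrays. DMH minus Arc was 2.24 ± 0.68 (SE, 95% interval 0.67 to 3.80, limma adjusted p = 0.173). With the other Arc array set to the lowest signal well above background there, the difference in means was 4.44-fold, which was not tested.

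**Figure D3:**
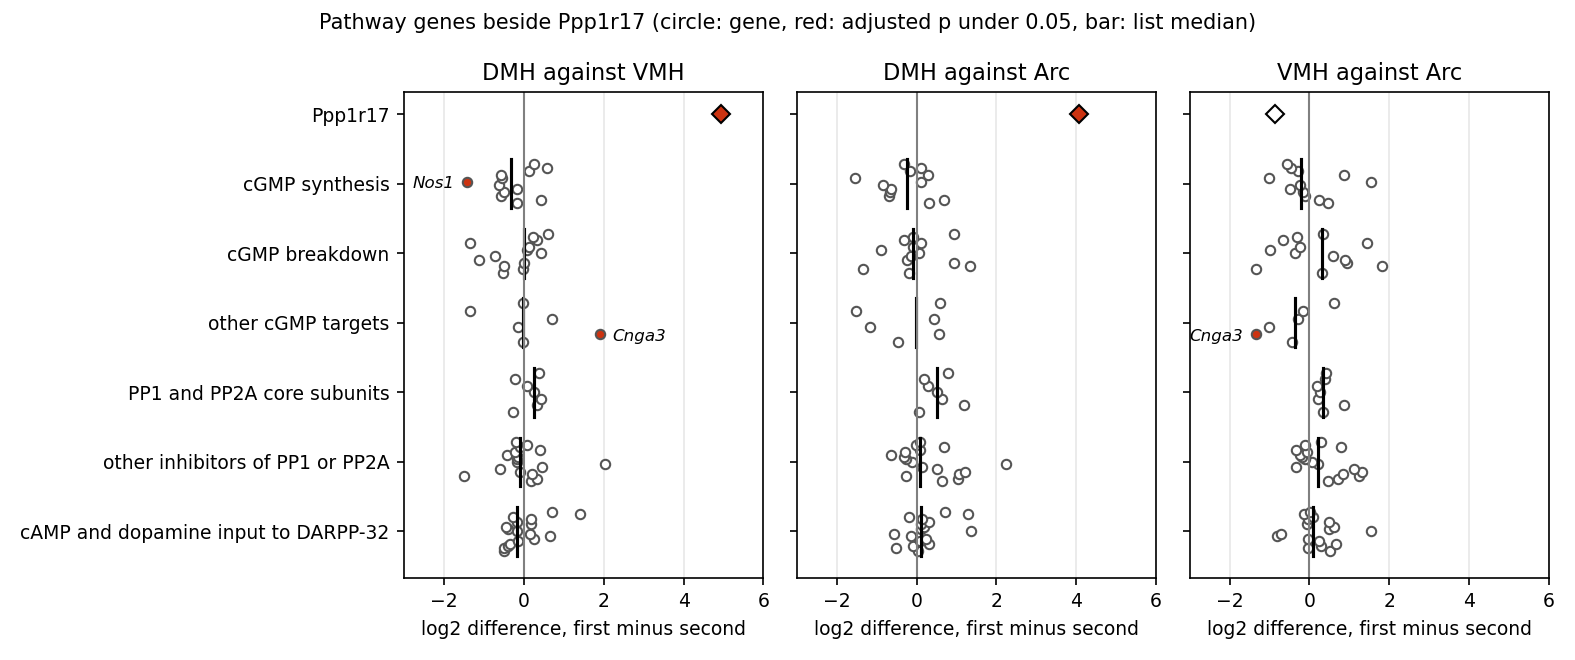
Log2 difference between nuclei (horizontal axis, first minus second) for each measured gene of 6 pathway lists (circles, red where the adjusted p is under 0.05, bar at the list median) and for Ppp1r17 (diamond). Nos1 at -1.44 and Cnga3 at 1.90 and -1.34 are the called circles, and Ppp1r17 lies at 4.93, 4.06 and -0.86.

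The cyclic AMP and dopamine input to DARPP-32 likewise gave no call, with 17 of 18 listed genes measured and Drd1a not measured. Of all genes, 0.419 to 1.23 percent were called, depending on the pair. Ppp3ca, the catalytic subunit of the phosphatase calcineurin, was above Arc by 1.54 in VMH (limma adjusted p = 0.143). Prkar2b, a regulatory subunit of cyclic AMP-dependent kinase, was above VMH by 0.70 in DMH (limma adjusted p = 0.18). The dopamine receptor gene Drd2 was well above background on all arrays, with DMH minus VMH at 0.66 (limma adjusted p = 0.28). The list's median differences were -0.17 for DMH minus VMH, 0.11 for DMH minus Arc and 0.08 for VMH minus Arc.

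Genes whose profile over the 8 arrays was most like that of Ppp1r17 were sought among 3258 genes whose nucleus means lay at least 1 apart on the log2 scale. The 6 highest Pearson correlations were those of Flrt3 (0.994), Kctd12 (0.989), Fhl2 (0.986), Atf5 (0.979), Pdyn (0.978) and Tuba8 (0.975). Flrt3 encodes a cell adhesion protein, Kctd12 an auxiliary subunit of GABA-B receptors, Atf5 a transcription factor and Pdyn the precursor of dynorphin. Each was higher on all DMH arrays than on any other array. Kctd12 came closest in size, with 1.40, 0.12 and 0.35 in DMH 1 to 3, -2.17, -2.70 and -2.34 in VMH 1 to 3 and -2.15 and -2.27 in Arc 1 and 2. Like Ppp1r17, all but Atf5 were highest on DMH 1, and Atf5 was highest on DMH 3. These correlations are over 8 arrays that fall into DMH and the rest, they share the array and its scaling, and they are a description of these samples.

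**Figure D4:**
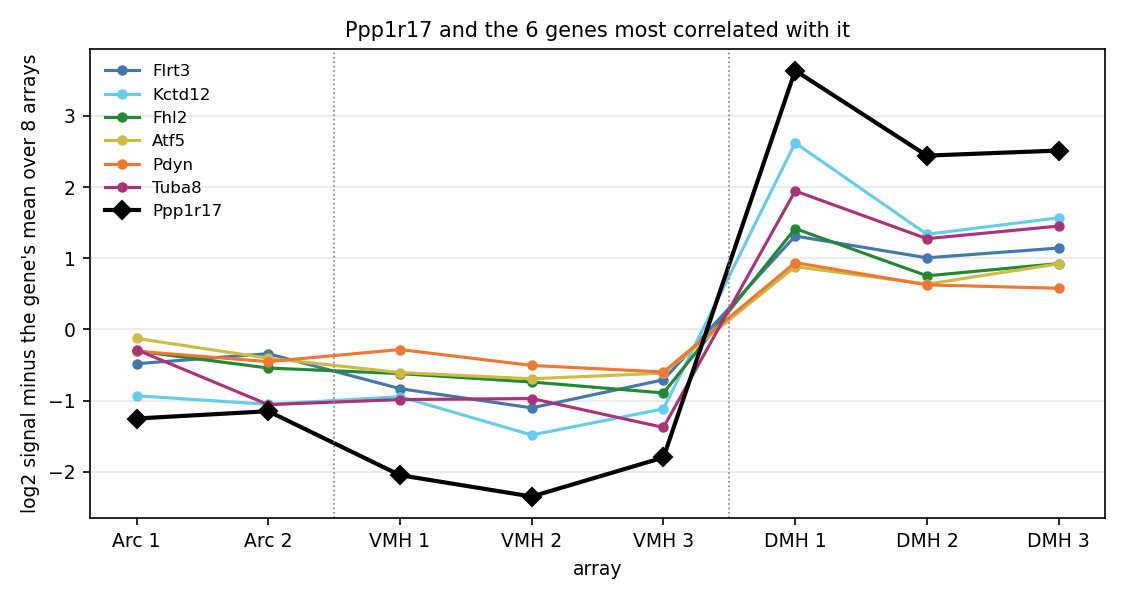
Level of Ppp1r17 (black) and of the 6 genes most correlated with it, each minus its own mean over the 8 arrays (vertical axis, log2), by array (horizontal axis). All 7 genes are highest on the 3 DMH arrays.

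The other members had different neighbours. Ppp1r1a was most like Bcor (0.980), Serbp1 (0.975) and Sulf1 (0.970), all with mean levels in the order DMH, VMH, Arc. Bcor was well above background on 0 of 2 Arc arrays, so its Arc level rests on dim spots. Ppp1r1b was most like Adamts2 (0.993), Clcn1 (0.972) and Odf3b (0.950), whose mean levels were lowest in Arc. Like Ppp1r1b, each was lowest on Arc 1, at -3.08, -5.27 and -4.17, against -0.38, -1.52 and -2.14 on Arc 2. Clcn1 and Odf3b were well above background on 1 of 2 Arc arrays. Prkg1 was most like Fcgbp (0.936), Gprc5c (0.923) and Ang3 (0.896), among 3259 candidates. Gprc5c was well above background on only 1 of 3 VMH and 1 of 3 DMH arrays. Prkg2 was most like Vstm2a (0.972), Ephb1 (0.971) and Gnb1l (0.971), each of which was also lowest on Arc 1. Vstm2a was well above background on 1 of 2 Arc arrays. Among the 5 genes themselves, the highest correlations over the 8 arrays were 0.779 between Ppp1r17 and Ppp1r1a and 0.763 between Ppp1r1b and Prkg2, and that between Ppp1r17 and Prkg2 was -0.09. Both Ppp1r1b and Prkg2 were lowest on Arc 1, where the Prkg2 spot was not well above background.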

How the data were processed

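Signals are spot intensities of the red (Cy5) channel, as background-subtracted and deposited. Per the file headers the software was Agilent Feature Extraction 11.5.1.1, with no scaling between arrays. RNA came from proteinase K and acid phenol isolation and was labelled chemically, per the labels. All 8 arrays lie on 1 slide from 1 scan. The deposited table of the whole series holds 55681 entries that run in constant steps (tolerance 1e-05) after the first 14 entries, and was not used.

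Log2 signal minus the array's 75th percentile was taken over 59305 non-control spots (55681 probes). Outlier spots were left out, and a probe was kept if all arrays of some nucleus flagged it as well above background (41480). A gene was "measured" if a probe of it was kept, and the brightest probe stood for each name. A mean per nucleus was fitted by lmFit and eBayes of limma 3.58.1 (R 4.3.3; files read by data.table, version 1.17.8), with 5 residual degrees of freedom, and p-values were adjusted within each pair of nuclei. The number of arrays limits the precision. A summed level is the log2 of the list's summed scaled signals. The fit was tested on simulated arrays. Gene names come from the array design, and 16361 of 27425, with all 5 members, matched RefSeq symbols (GRCm38.p6).

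Named are the 5 members, list genes past the threshold and the genes most correlated with a member. List genes were at most 4 per list and pair, otherwise the 2 with the smallest p. Drd2, Foxj1, Nes, Vim, Col23a1, Phactr4, Pde1c and genes not measured are named beside this rule. Members and lists were chosen with earlier results of these data known. Some items of the probes and marker lists are not reported here.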

Additional observations from a re-analysis of the deposited data

How the results depend on the processing

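The fit was repeated under 21 alternatives, 8 of which left out 1 array each, and 11 of the 15 differences of the 5 genes kept their direction and their side of the threshold in each that tested them. Ppp1r17 passed in DMH against VMH in all 21 (4.02 to 5.14, adjusted p 0.000367 to 0.0193) and in DMH against Arc in 20 (3.50 to 4.28); with the replicate number as a block the latter was 4.09 with an adjusted p of 0.0573. Ppp1r1b ran from -0.34 to 2.32 for DMH minus Arc and from 0.25 to 2.91 for VMH minus Arc when 1 array was left out, reversing without Arc 1 and passing without Arc 2. Prkg1 for DMH minus VMH ran from -0.52 to 0.38 when 1 array was left out and was 0.032 with slide row as a block. Prkg2 was not tested where a probe had to be well above background on all arrays. The call of Nos1 held under 6 of 21 alternatives and that of Cnga3 in VMH against Arc under 8, both added after seeing the data, as were counts of list genes.

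Counts of called genes moved more. DMH against Arc (115) gave 234 with normexp, 41 with no filter, 207 with the mean of a gene's probes, 225 with trended robust eBayes, 43 with array weights, 58 with slide row as a block, 46 with only the 2 nuclei in the fit and 38 to 245 when 1 array was left out. DMH against VMH (337) gave 200 with no filter, 167 with slide row as a block and 113 to 289 when 1 array was left out. VMH against Arc (268) gave 408 with normexp, 164 with no filter, 164 with slide row as a block, 72 with only the 2 nuclei and 93 to 342 when 1 array was left out. The cause was not tested.

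With the replicate number as a block these counts were 32, 163 and 74. Same-numbered samples correlated at 0.0734 to 0.188 in their deviations from the nucleus means and others at -0.128 to 0.0173; not every pair passed 0.1, so the numbers were not taken as pairs, although every sample correlated best with its own number.

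Each gene rests on 1 probe and on 2 or 3 arrays a nucleus. The Prkg2 spot on Arc 1 was not well above background.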

Other observations

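In the RefSeq gene order of GRCm38.p6, used for order only, the gene next to Ppp1r17 is Pde1c, which encodes a calcium-dependent phosphodiesterase that breaks down cyclic GMP. Pde1c differed from VMH in DMH by -1.13 ± 0.27 on the log2 scale (SE, 95% interval -1.76 to -0.50; limma adjusted p = 0.12), opposite in sign to Ppp1r17 and short of the threshold. Its DMH minus Arc was -0.24 and its VMH minus Arc 0.89. On the other side, Neurod6 and Itprid1 were not measured, and Adcyap1r1, the receptor of the peptide PACAP, had DMH minus VMH at 0.40 and DMH minus Arc at 0.01. The measured genes within 3 places of Ppp1r17, Adcyap1r1 and Pde1c, gave no call in any pair of nuclei.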
